A study of Rattus norvegicus with 8 samples.

Results

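The genes described here are 9 markers of C cells, the calcitonin-secreting neuroendocrine cells that lie beside the thyroid follicles: Calca, Calcb, Scgn, Chga, Scg2, Scg3, Gfra4, Ret, and Sct. They were found by gene symbol among the 30560 gene identifiers of the count table, and each was read as its transcript with the highest summed raw count. All 9 were present, and all 9 passed the filter on low counts in each of the 4 comparisons. The RNA-Seq libraries were made from the thyroids of 8 male Wistar rats, 2 per group. The 1w0Gy and 1w4Gy rats received sham or 4 Gy cervical X-irradiation at 1 week of age, and the 4m0Gy and 4m4Gy rats received the same at 4 months of age. Thyroids were removed about 8 weeks later, so the rats of the 4-month groups were also older at sampling. Lead plates covered the body except the neck, and the RNA of each library came from a single rat, picked for a higher RNA integrity number among the rats of its group.

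C cells arise apart from the hormone-producing follicular cells and release calcitonin from dense core granules when blood calcium rises. The granules also hold granins, acidic proteins that help to pack peptide hormones, and the cell surface carries the receptor tyrosine kinase RET with its coreceptor GFRA4. Activating changes in RET drive medullary thyroid carcinoma, the tumor of this cell type.

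The libraries held 14835406 to 18138113 counts on genes, of which thyroglobulin (Tg), the follicular hormone precursor, took 18.5% to 21.3%. The rats that share a group differed beyond counting noise, and the chi-square divided by its degrees of freedom was 7.97 to 16.2 over the 4 groups. The 11 follicular markers summed to between 22003 and 26727 TPM, a share of the library scaled by transcript length, in every library. The 5 cartilage and trachea markers reached at most 1.37 TPM in sum and the 5 thymocyte markers at most 1.67 TPM. The 5 endothelium markers ranged from 181 to 253 TPM, the 13 nerve and Schwann cell markers from 47.4 to 76.1 TPM, the 7 skeletal muscle markers from 4.93 to 50.3 TPM, and the 7 adipocyte markers from 84.9 to 333 TPM. One library stood apart in the 6 parathyroid markers, which summed to 388 TPM in 4m4Gy replicate 2 and to 2529 to 7066 TPM in the other 7. In whole thyroid tissue, fewer C cells and less RNA per C cell cannot be told apart.

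Together the 9 genes took 0.342% to 0.867% of the counts. On the TPM scale, which allows levels of different genes to be compared, Calca stood first with a median of 5108 TPM over the 8 libraries, ranging from 2476 to 9036 TPM. Chga was second with a median of 775 TPM, and it was below Calca and above every other member in all 8 libraries. The next group of genes lay within a narrow band, Gfra4 at a median of 35.8 TPM, Scg3 at 31.8 TPM, and Calcb at 25.7 TPM. Their order was not fixed, since Gfra4 exceeded Scg3 in 6 of 8 libraries, Scg3 exceeded Calcb in 6, and Calcb exceeded Ret in 5. Ret had a median of 17.4 TPM and was above Scgn in 8 of 8 libraries. The lowest levels were those of Scgn at a median of 2.89 TPM, Scg2 at 2.79 TPM, and Sct at 1.59 TPM, with Scgn above Scg2 in 4 of 8 libraries and Scg2 above Sct in 7. The ratio of the highest to the lowest library was smallest for Ret, at 1.57, and largest for Chga, at 8.65.

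Differences between libraries are given below as CPM, the count divided by the TMM-adjusted size of its library. The plot of CPM by library shows all 9 genes.

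**Figure D1:**
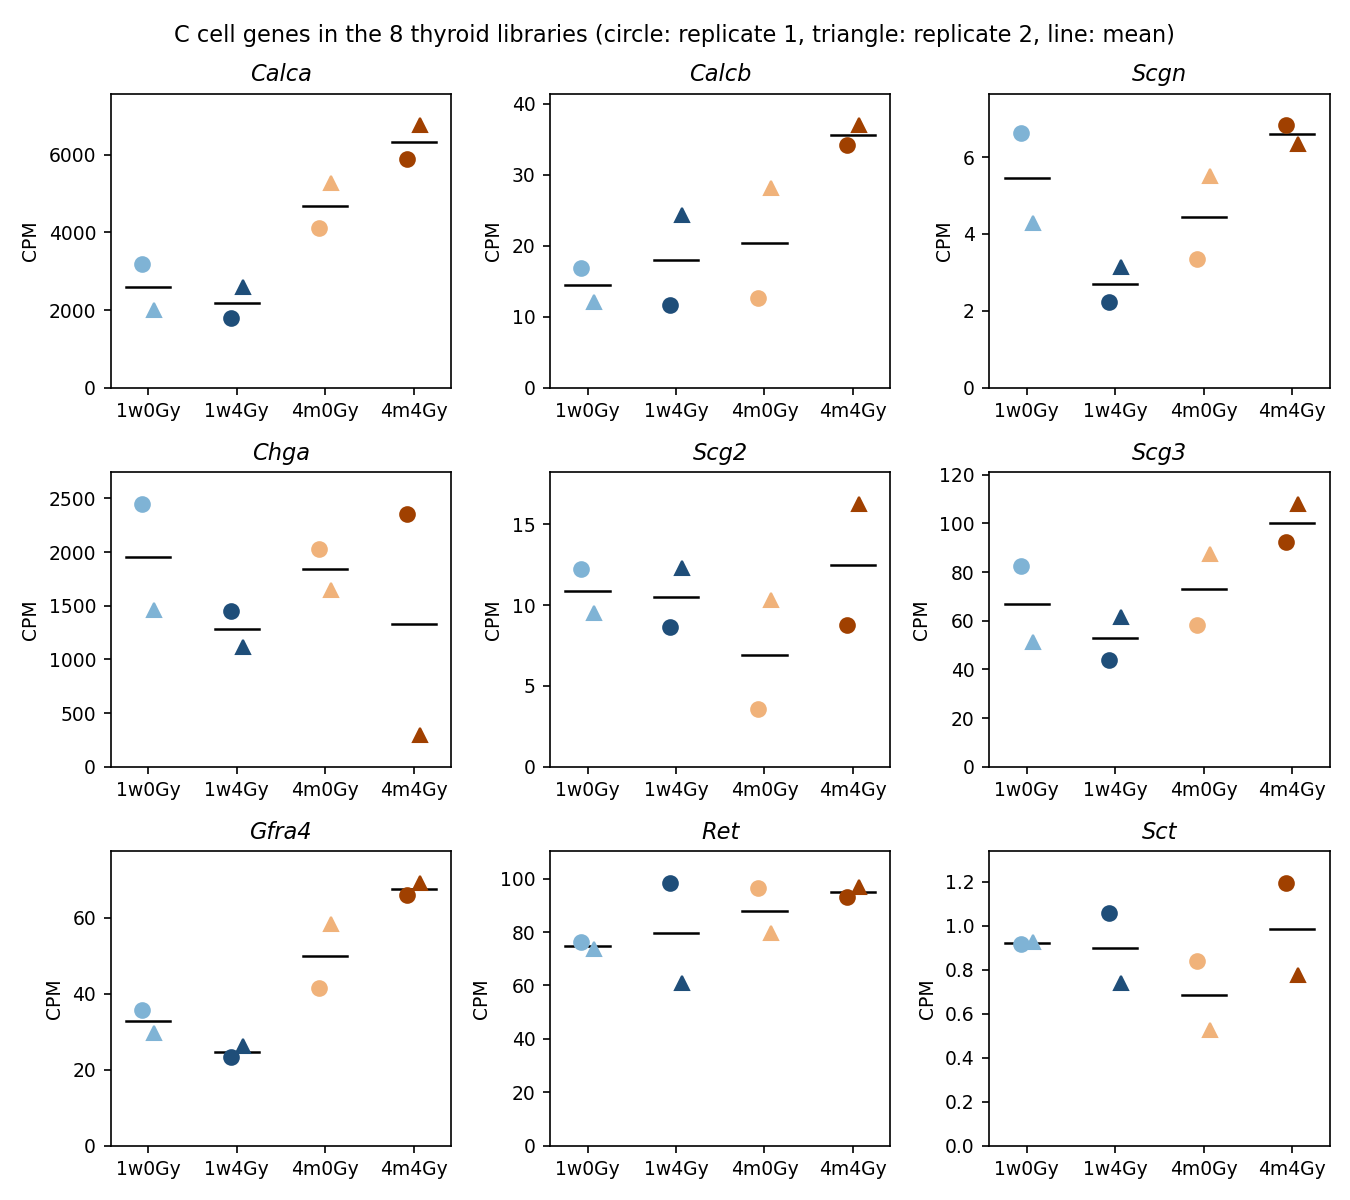
CPM of each of the 9 C cell genes (vertical axes, linear from 0) in the groups 1w0Gy, 1w4Gy, 4m0Gy, and 4m4Gy, with replicate 1 as a circle, replicate 2 as a triangle, and the group mean as a line. Calca and Gfra4 lie higher in all 4 libraries of the 4-month groups than in all 4 of the 1-week groups, and the lowest point of Chga is 4m4Gy replicate 2 at 299 CPM.

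Calca (ENSRNOG00000011130, chromosome 1) encodes calcitonin and, by alternative splicing, the neuropeptide CGRP. Its level was 3181 and 1993 CPM in 1w0Gy, 1786 and 2594 CPM in 1w4Gy, 4108 and 5266 CPM in 4m0Gy, and 5884 and 6769 CPM in 4m4Gy. The 1-week groups overlapped each other, whereas each 4-month library exceeded each 1-week library and both 4m4Gy libraries exceeded both 4m0Gy libraries. The table holds 2 Calca transcripts, of 666 and 974 bases. The longer one had between 74.8% and 78.5% of the shorter one's count in all 8 libraries, and the table does not say which of them carries the calcitonin exon. Calcb (ENSRNOG00000011074, chromosome 1), the gene of the beta form of CGRP, is a close relative of Calca and carries the biotype pseudogene in the table, so reads shared between them could have been split or lost in counting. Calcb was at 16.8 and 12.04 CPM in 1w0Gy, 11.7 and 24.3 CPM in 1w4Gy, 12.7 and 28.2 CPM in 4m0Gy, and 34.2 and 37.0 CPM in 4m4Gy. Its highest levels were the pair of 4m4Gy libraries, and the other groups overlapped.

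Sct (ENSRNOG00000017873, chromosome 1) encodes secretin, a gut hormone that also stimulates calcitonin release. It was at 0.917 and 0.926 CPM in 1w0Gy, 1.06 and 0.742 CPM in 1w4Gy, 0.840 and 0.528 CPM in 4m0Gy, and 1.19 and 0.777 CPM in 4m4Gy. These levels rest on 9 to 18 reads per library. An exact Poisson interval at 95%, covering counting error only, runs from 4.12 to 17.1 for 9 reads and from 10.7 to 28.4 for 18, so no difference between libraries was detectable at this depth.

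Among the granins, Chga (ENSRNOG00000052549, chromosome 6) encodes chromogranin A, a major granule protein of C cells and of parathyroid cells. It was at 2448 and 1464 CPM in 1w0Gy, 1454 and 1112 CPM in 1w4Gy, 2028 and 1650 CPM in 4m0Gy, and 2353 and 299 CPM in 4m4Gy. The last of these was far below the other 7 libraries. Scg3 (ENSRNOG00000010784, chromosome 8), secretogranin III, helps to sort other granins to the granule membrane. Its level was 82.7 and 51.1 CPM in 1w0Gy, 44.0 and 61.7 CPM in 1w4Gy, 58.4 and 87.6 CPM in 4m0Gy, and 92.4 and 108 CPM in 4m4Gy, with overlap between the ages. Scg2 (ENSRNOG00000015055, chromosome 9), secretogranin II, is the precursor of secretoneurin. It was at 12.2 and 9.50 CPM in 1w0Gy, 8.64 and 12.3 CPM in 1w4Gy, 3.55 and 10.3 CPM in 4m0Gy, and 8.76 and 16.2 CPM in 4m4Gy. The 4-month groups held both its lowest and its highest library.

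Scgn (ENSRNOG00000016628, chromosome 17) encodes secretagogin, a calcium-binding protein of neuroendocrine cells. It was at 6.64 and 4.28 CPM in 1w0Gy, 2.24 and 3.15 CPM in 1w4Gy, 3.36 and 5.51 CPM in 4m0Gy, and 6.84 and 6.34 CPM in 4m4Gy. The 1w4Gy libraries held the lowest levels, on 36 and 51 reads, for which exact Poisson intervals of counting error run from 25.2 to 49.8 and from 38.0 to 67.1. The receptor kinase gene Ret (ENSRNOG00000014751, chromosome 4) was at 76.1 and 73.7 CPM in 1w0Gy, 98.4 and 60.9 CPM in 1w4Gy, 96.3 and 79.7 CPM in 4m0Gy, and 93.1 and 96.7 CPM in 4m4Gy. The pair of 1w4Gy libraries spanned the levels of all other groups. Gfra4 (ENSRNOG00000021241, chromosome 3), the coreceptor through which persephin acts on RET, was at 35.8 and 29.6 CPM in 1w0Gy, 23.2 and 26.3 CPM in 1w4Gy, 41.5 and 58.2 CPM in 4m0Gy, and 66.0 and 69.1 CPM in 4m4Gy. Its 4 groups did not overlap, in the rising order 1w4Gy, 1w0Gy, 4m0Gy, and 4m4Gy. The share of all genes with 4 groups that do not overlap was not counted.

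The upstream regions of Calca, Gfra4, and Scg3 are shown because these 3 genes moved together over the libraries. Promoter sequences were matched by symbol to RefSeq on assembly GRCr8 for 6 of the 9 members, Calca, Scgn, Scg2, Scg3, Gfra4, and Ret. Each run below is the 250 bases before the annotated start, 5′ to 3′ on the gene's strand, which is the minus strand for all 3. They come from chr1:178317530-178317779 for Calca, chr3:138710957-138711206 for Gfra4, and chr8:85322485-85322734 for Scg3. Capitals mark matches to CANNTG, the E-box core that basic helix-loop-helix factors can bind, and to TGACGTCA, the full cAMP response element.
Calca: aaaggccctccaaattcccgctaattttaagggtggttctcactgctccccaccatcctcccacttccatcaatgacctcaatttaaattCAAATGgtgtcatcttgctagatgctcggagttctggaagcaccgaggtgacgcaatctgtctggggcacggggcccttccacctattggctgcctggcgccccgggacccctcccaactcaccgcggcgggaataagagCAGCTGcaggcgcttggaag
Gfra4: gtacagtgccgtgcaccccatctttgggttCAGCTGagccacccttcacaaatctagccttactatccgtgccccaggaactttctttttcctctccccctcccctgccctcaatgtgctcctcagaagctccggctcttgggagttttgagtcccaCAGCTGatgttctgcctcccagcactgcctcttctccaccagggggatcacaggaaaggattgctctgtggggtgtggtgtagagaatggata
Scg3: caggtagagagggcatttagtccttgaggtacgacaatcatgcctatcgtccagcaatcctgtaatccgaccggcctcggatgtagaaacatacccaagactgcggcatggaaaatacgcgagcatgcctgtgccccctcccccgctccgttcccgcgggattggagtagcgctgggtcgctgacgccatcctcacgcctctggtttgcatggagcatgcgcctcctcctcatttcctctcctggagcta
Calca held 2 CANNTG matches, whose first bases lie 160 and 20 bases before the start, Gfra4 held 2, at 220 and 93 bases, and Scg3 held none. CANNTG, which reads the same on both strands up to its open bases, was present in 65.5% of all 33469 promoter windows of this length. Of the other members, Scg2 held 1 match to TGACGTCA, 123 bases before its start, a word found in 1.59% of all windows. Scg2 and Ret held 1 CANNTG match each, and Scgn held none. CAAG on either strand, the core of the site of NKX2-1, was found in all 6 windows and in 86.7% of all windows. These matches are descriptions of letters in the windows and were not tested for binding.

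The first comparison asked whether the C cell genes differed with age in unexposed rats, 4m0Gy against 1w0Gy. Calca averaged 2587 ± 840 CPM in 1w0Gy and 4687 ± 818 CPM in 4m0Gy (SD, n = 2 each), and its log2 fold change with its standard error (SE) was 0.86 ± 0.28. Gfra4 averaged 32.7 ± 4.34 and 49.9 ± 11.9 CPM (SD, n = 2 each), and its log2 fold change was 0.61 ± 0.19 (SE). Neither passed the quasi-likelihood test of edgeR after Benjamini-Hochberg adjustment over all genes, with adjusted p = 0.245 for Calca and adjusted p = 0.216 for Gfra4. With this test 0 of the 9 members were called at an adjusted p under 0.05, where 1.06% of the 15364 genes tested were called. An unadjusted p under 0.05 was reached by 3 members, Calca, Gfra4, and Ret, and by 17.8% of all genes. Those 3 lay higher in both 4m0Gy libraries than in both 1w0Gy libraries, as did 25.2% of all genes, and Sct lay lower in both, as did 25%. The log2 fold change of Ret was 0.23 and that of Sct -0.44. The remaining 5 members overlapped between the groups, with log2 fold changes of -0.64 for Scg2, -0.30 for Scgn, -0.09 for Chga, 0.13 for Scg3, and 0.50 for Calcb. DESeq2's Wald test called 1 member, Gfra4, with an adjusted p of 0.0431, where it called 342 of the 21241 genes tested. Without 4m0Gy replicate 2, the log2 fold change from edgeR was -1.62 for Scg2 and 0.36 for Ret, and without 4m0Gy replicate 1 it was 0.83 for Gfra4. Each of these settings leaves 1 library at 4 months, which is assumed to vary like the pair of 1w0Gy libraries. The 7 adipocyte markers were all lower with age, with a median log2 fold change of -0.80 and 0 called, and summed to 256 and 333 TPM in 1w0Gy and to 101 and 231 TPM in 4m0Gy. Their part in the C cell values was not tested.

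When age was fitted over all 8 libraries with irradiation as an additive term, Calca and Gfra4 were called and the other 7 members were not. In the quasi-likelihood test of edgeR, Calca was 1.19 ± 0.22 higher on the log2 scale (SE, adjusted p = 0.0262) and Gfra4 1.02 ± 0.20 higher (SE, adjusted p = 0.0332), and 4.27% of 15684 genes were called. That fit assumes 1 irradiation change for both ages. The log2 fold changes with irradiation, none of them called, were -0.24 at 1 week and 0.43 at 4 months for Calca. For Gfra4 they were -0.40 and 0.43. In sham-irradiated rats alone the age difference was 0.86 for Calca and 0.61 for Gfra4. Calca and Gfra4 were also the members whose 4 libraries at 4 months all lay above the 4 at 1 week, as did 6.18% of all genes, and 0 members lay all below, as did 6.61%. The age term of the additive fit was 0.75 for Calcb (adjusted p = 0.280), 0.52 for Scg3 (adjusted p = 0.351), and -0.02 for Chga (adjusted p = 0.994). Age at irradiation and age at sampling cannot be told apart in these groups.

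The next comparison asked whether 4 Gy at 1 week of age changed the C cell genes, 1w4Gy against 1w0Gy. Scgn had the lowest log2 fold change of the 9, -1.02 ± 0.30 (SE), with group means of 5.46 ± 1.66 and 2.69 ± 0.646 CPM (SD, n = 2 each). Gfra4 followed Chga at -0.40 ± 0.13 (SE), with group means of 32.7 ± 4.34 and 24.8 ± 2.22 CPM (SD, n = 2 each). Neither passed, since the adjusted p from edgeR was 0.849 for both. A call required an adjusted p below 0.05 together with a fold above 1.5 or under 0.5. Called members numbered 0 of 9 with edgeR and 0 with DESeq2, which gave no adjusted p for Scgn and Sct, and 0.00651% of 15359 genes tested were called with edgeR. An unadjusted p under 0.05 was reached by 2 members, Scgn and Gfra4, and by 5.68% of all genes. Scgn, Gfra4, and Chga lay lower in both 1w4Gy libraries than in both 1w0Gy libraries, as did 18% of all genes tested. The log2 fold change of Chga was -0.61 ± 0.27 (SE, adjusted p = 0.875). The parathyroid markers stood beside this at 4213 and 6252 TPM in 1w0Gy and at 2529 and 3700 TPM in 1w4Gy, and their part in the Chga value was not tested. The other 6 overlapped, with log2 fold changes of -0.34 for Scg3, -0.24 for Calca, -0.06 for Scg2, -0.04 for Sct, 0.09 for Ret, and 0.32 for Calcb. The sign of Calca turned to 0.14 without 1w0Gy replicate 1 and to 0.01 without 1w4Gy replicate 1. The median of the 9 was -0.24, and that of all genes was 0.00. The adipocyte markers, 256 and 333 TPM in 1w0Gy and 174 and 183 TPM in 1w4Gy, did not overlap in sum between these groups, with 6 of the 7 genes at an unadjusted p under 0.05 and 0 called, and the 5 endothelium markers, 199 and 212 TPM in 1w0Gy and 236 and 253 TPM in 1w4Gy, were all higher, with 4 at an unadjusted p under 0.05 and 0 called. Whether either list bears on the C cell values was not tested.

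For irradiation at 4 months of age, 4m4Gy against 4m0Gy, Calca averaged 4687 ± 818 and 6326 ± 626 CPM (SD, n = 2 each), and its log2 fold change was 0.43 ± 0.13 (SE). Gfra4 averaged 49.9 ± 11.9 and 67.6 ± 2.15 CPM (SD, n = 2 each), and its log2 fold change was 0.43 ± 0.17 (SE). Their adjusted p-values from edgeR were 0.479 and 0.594, so neither was called. Of the 9 members 0 were called with edgeR and 0 with DESeq2, where edgeR called 0.0197% of 15253 genes tested. Calca and Gfra4 were the 2 members with an unadjusted p under 0.05, a limit passed by 8.39% of all genes. Both 4m4Gy libraries lay above both 4m0Gy libraries for 5 members, Calca, Calcb, Scgn, Scg3, and Gfra4, as they did for 20.5% of all genes. The log2 fold changes of the other 3 of these were 0.79 ± 0.49 for Calcb, 0.56 ± 0.27 for Scgn, and 0.45 ± 0.24 for Scg3 (SE). Scg2 at 0.84, Sct at 0.53, and Ret at 0.11 overlapped between the groups. The log2 fold change of Chga was -0.47 ± 1.33 (SE), the least precise value of the 9. It came to -2.63 without 4m4Gy replicate 1 and to 0.34 without 4m4Gy replicate 2. Either setting leaves 1 irradiated library, which is assumed to vary like the pair of 4m0Gy libraries. The median of the 9 was 0.45, and that of all genes was 0.01. Without 4m0Gy replicate 2, the 4m0Gy library with the higher Calca, the log2 fold changes were 0.61 for Calca, 1.48 for Calcb, 0.77 for Scg3, and 0.69 for Gfra4. That setting leaves 1 sham library, which is assumed to vary like the irradiated ones.

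**Figure D2:**
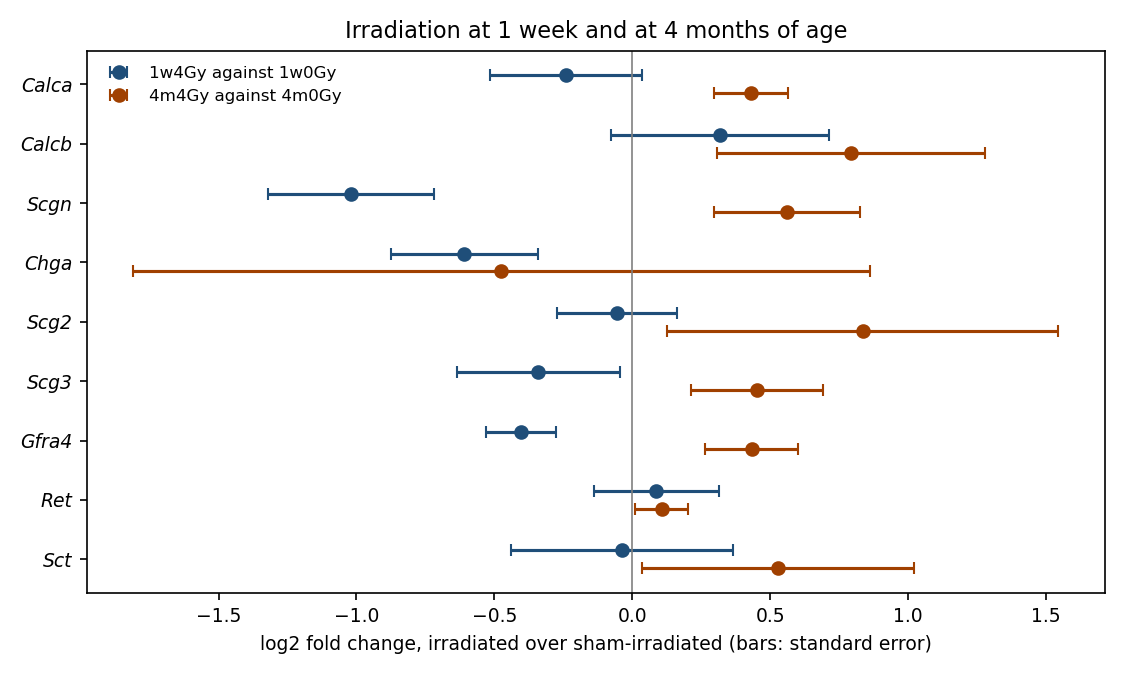
Log2 fold change of each C cell gene, irradiated over sham-irradiated (horizontal axis), at 1 week (blue) and at 4 months of age (orange), with bars of 1 standard error from edgeR. At 1 week the values run from -1.02 for Scgn to 0.32 for Calcb, at 4 months from -0.47 for Chga to 0.84 for Scg2, and the bar of Chga at 4 months is the widest at 1.33.

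Whether the response differed between the ages was tested as the interaction of age and irradiation over all 8 libraries, the change at 1 week minus that at 4 months. The interaction was below 0 for all 9 members, with a median of -0.67 against -0.02 for all genes, of which 52.3% were at or below 0. Scgn had the lowest value, -1.58 ± 0.43 (SE, adjusted p = 0.409 from edgeR), and Gfra4 was at -0.84 ± 0.23 (SE, adjusted p = 0.421). EdgeR called 0 members and DESeq2 called 0, and edgeR called 0.0% of the 15684 genes tested. An unadjusted p under 0.05 was reached by 2 members, Scgn and Gfra4, and by 9.12% of all genes. The interactions of the other members were -0.90 for Scg2, -0.80 for Scg3, -0.67 for Calca, -0.57 for Sct, -0.48 for Calcb, -0.14 for Chga, and -0.02 for Ret. Chga turned to 0.62 and Ret to 0.01 when the difference was taken from mean log2 TPM + 1. The members were chosen as marks of 1 cell type and were read in the same 8 libraries, so 9 equal signs are not 9 separate observations. Chga, also a gene of parathyroid cells, followed Pth (r = 0.99) more closely than Calca (r = -0.28).

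Between the 2 rats of a group, the C cell genes were compared by the log2 ratio of replicate 1 to replicate 2. For Calca this was 0.67 in 1w0Gy, -0.54 in 1w4Gy, -0.36 in 4m0Gy, and -0.20 in 4m4Gy. The rat with more Calca also had more Calcb, Scg2, Scg3, and Gfra4 in 4 of 4 groups, and more Scgn in 3 of 4. How many of all genes share the sign of Calca in 4 of 4 groups was not counted. Ret had the sign of Calca in 2 groups, Chga in 1, and Sct in 0. For Scg3 the ratios were 0.69, -0.49, -0.58, and -0.22 in the same order, close to those of Calca in size as well. Scg2 differed most within 4m0Gy, by -1.52. Chga differed by 2.98 within 4m4Gy, the largest replicate difference of the 9 genes.

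**Figure D3:**
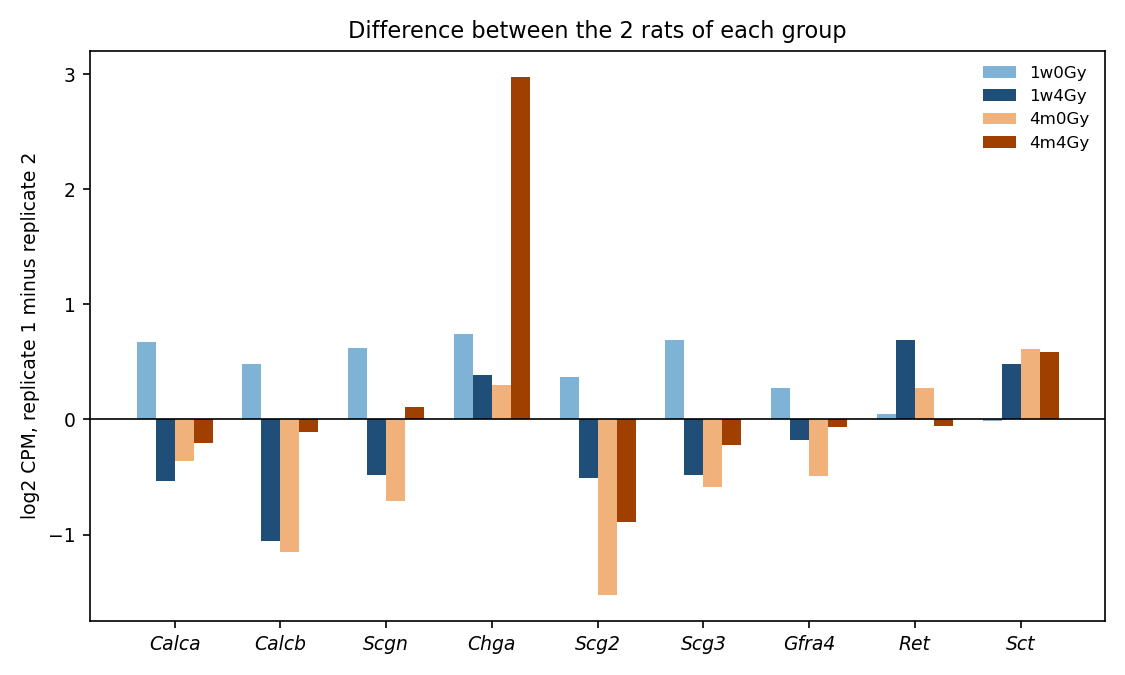
Log2 ratio of replicate 1 to replicate 2 in CPM (vertical axis) for each C cell gene, 1 bar for each of the 4 groups. Calca, Calcb, Scg2, Scg3, and Gfra4 share their sign in every group, whereas Chga is above 0 in all 4 and reaches 2.98 in 4m4Gy.

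Over the 8 libraries, the correlation of each of the 8 other members with Calca was computed on log2 CPM. Gfra4 followed Calca with Pearson's r = 0.97 (exact permutation p = 0.000372, adjusted p = 0.00298) and Spearman's rho = 0.98 (exact permutation p = 0.000397, adjusted p = 0.00317). Without the 2 libraries farthest from the median Calca level, 1w4Gy replicate 1 and 4m4Gy replicate 2, its r was 0.94. Scg3 had r = 0.90 (exact permutation p = 0.00511, adjusted p = 0.0204) and rho = 0.93 (exact permutation p = 0.00223, adjusted p = 0.00893), with r = 0.79 without the same libraries. These 2 of 8 passed an adjusted p of 0.05 for r. Scg3 no longer passed without 1w4Gy replicate 1 (r = 0.85, adjusted p = 0.0937 by exact permutation) or without 4m4Gy replicate 2 (r = 0.86, adjusted p = 0.0841 by exact permutation). Because Calca differed between the ages, r was also taken within the 4 libraries of each age, as a description. It was 0.77 at 1 week and 0.97 at 4 months for Gfra4, and 0.99 and 0.98 for Scg3. With group means subtracted, r was 0.83 for Gfra4 (rank 575 of 15683 genes) and 0.98 for Scg3 (rank 27). The permutation p-values take the 8 libraries as exchangeable, although they come from 4 groups.

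Calcb had r = 0.81 (exact permutation p = 0.0276, adjusted p = 0.0736) and rho = 0.90 (exact permutation p = 0.00456, adjusted p = 0.0122), and r fell to 0.65 without the 2 farthest libraries. Scgn had r = 0.72 (exact permutation p = 0.0494, adjusted p = 0.0987) and rho = 0.71 (exact permutation p = 0.0576, adjusted p = 0.115), and its r was 0.49 without the same libraries. Scg2 had r = 0.10 over all libraries (exact permutation p = 0.859, adjusted p = 0.859) but 0.94 within the 1-week and 0.95 within the 4-month libraries. These within-age values rest on 4 libraries each, sham-irradiated and irradiated together, and were not tested. With group means subtracted, r of Scg2 was 0.70 (rank 1391 of 15683 genes). Scg2 per Calca was lower at 4 months, as were 83.0% of all other genes. Ret had r = 0.37 (exact permutation p = 0.371, adjusted p = 0.594), with -0.56 within the 1-week and 0.06 within the 4-month libraries. Over both ages, r of Ret was 0.69 without the 2 farthest libraries. Without 1w4Gy replicate 1 alone, r of Ret was 0.76 (exact permutation p = 0.0474, adjusted p = 0.126). Sct had r = -0.27 (exact permutation p = 0.530, adjusted p = 0.665), and Chga had r = -0.28 (exact permutation p = 0.581, adjusted p = 0.665). The value of Chga rests on 4m4Gy replicate 2, since its r was 0.59 without that library (exact permutation p = 0.164, adjusted p = 0.263) and 0.56 without the 2 farthest libraries. Within the 1-week libraries r of Chga was 0.51, and within the 4-month libraries -0.67.

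Divided by Calca, Gfra4 was the steadiest member, at 10.1 to 14.9 CPM per 1000 CPM of Calca, a ratio of 1.47 between the highest and the lowest library. Scg3 per 1000 Calca was 23.8 to 25.99 in the 4 libraries at 1 week and 14.2 to 16.6 in the 4 at 4 months, with no overlap. Scg2 per 1000 Calca was 3.85 to 4.84 at 1 week and 0.865 to 2.40 at 4 months. Such a fall with age was common, since 83.0% of the 15683 other genes lay lower per Calca in all 4 libraries at 4 months. Calcb, from 3.08 to 9.39 per 1000 Calca, overlapped between the ages.

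Chga was also set beside Pth, the parathyroid hormone gene. Pth was at 4651 and 3198 CPM in 1w0Gy, 2795 and 1848 CPM in 1w4Gy, 5306 and 3814 CPM in 4m0Gy, and 5202 and 298 CPM in 4m4Gy. The correlation of Chga with Pth was examined after the values were seen, among 9 correlations with Pth. It had r = 0.99 (exact permutation p = 0.000372, adjusted p = 0.00335) and rho = 0.90 (exact permutation p = 0.00456, adjusted p = 0.0411). Without 1w4Gy replicate 2 and 4m4Gy replicate 2, the libraries farthest from the median Pth level, r was 0.89, and it was 0.96 within the 1-week and 1.00 within the 4-month libraries. None of the other 8 members passed an adjusted p of 0.05 with Pth, their r running from -0.62 for Scg2 to 0.23 for Sct. Without the same 2 libraries, r with Pth was 0.79 for Calca, 0.70 for Gfra4, 0.67 for Scg3, and 0.59 for Scgn, so their low values over all libraries rest on those libraries. Among all 15683 other genes ranked by r with Chga over all 8 libraries, Pth was rank 5, and Gcm2, the regulator of parathyroid development, was rank 6, while Calca was rank 12148. Gcm2 was at 4.01 CPM in 4m4Gy replicate 2 and at 37.4 to 81.2 CPM elsewhere, and Kl, the klotho coreceptor gene used as a parathyroid marker, at 3.17 CPM and at 22.6 to 47.0 CPM. In the library where Chga was at 299 CPM, Calca and Gfra4 had their highest levels of all 8. The share of Chga reads from C cells and from parathyroid cells was not tested.

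**Figure D4:**
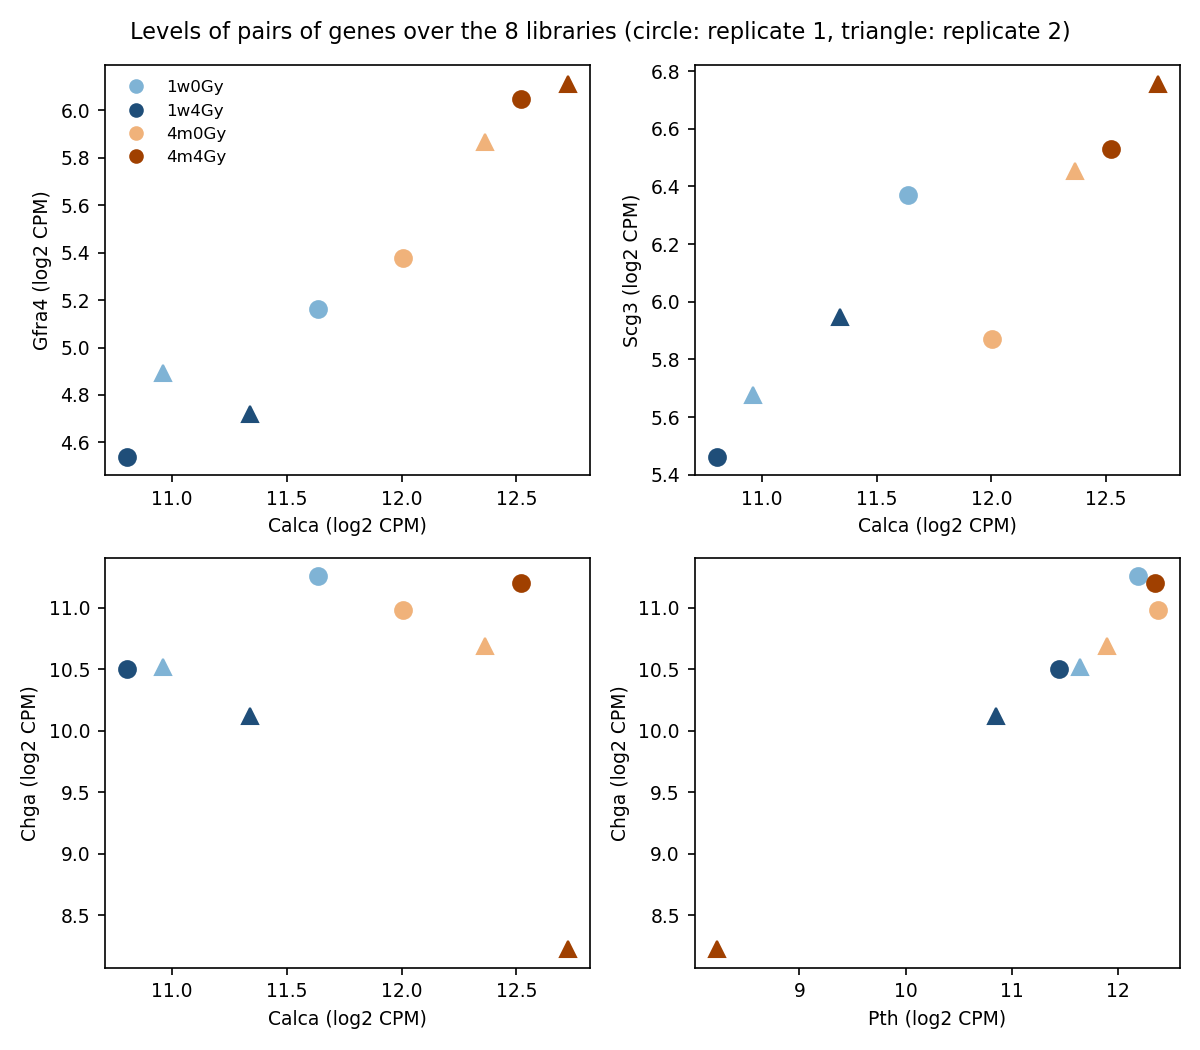
Log2 CPM of pairs of genes in the 8 libraries, colored by group, for Calca with Gfra4 (r = 0.97), Calca with Scg3 (r = 0.90), Calca with Chga (r = -0.28), and Pth with Chga (r = 0.99). The low point of Chga and Pth is 4m4Gy replicate 2, which has the highest Calca.

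The genes most like Calca over the 8 libraries, of 15683, were named by Pearson's r of log2 CPM. The first 10 were Hoxb7, Cited1, Syp, Hoxb8, Rasd2, Ctxn3, Ndrg4, Insrr, Gch1, and Adgrb1, with r from 1.00 down to 0.97. Gfra4 was rank 11 and Scg3 rank 184. Syp, synaptophysin, a membrane protein of secretory vesicles, was at 13.7 and 9.90 CPM in 1w0Gy, 9.01 and 10.5 CPM in 1w4Gy, 13.7 and 18.5 CPM in 4m0Gy, and 18.6 and 20.005 CPM in 4m4Gy. Hoxb7, a homeobox gene, was at 2.30 to 3.18 CPM in the 1-week and 3.49 to 4.86 CPM in the 4-month libraries. With group means subtracted, the 10 most similar were Hnrnpr, Septin6, Hoxb7, Zc3h13, Rspo4, Cbll1, Uhrf1bp1l, R3hdm1, and 2 identifiers without a name, and Hoxb7 was the gene in both lists.

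Other genes of the C cell program were examined as lists. Of 11 neuroendocrine regulators, 9 or 10 were tested in a comparison and 0 were called in any of the 4. Rest, a repressor of neuronal genes, had -0.72 at 4 months (adjusted p = 0.436), and Foxa2 had an interaction of -1.13 (adjusted p = 0.459). Nkx2-1, shared with follicular cells, had the highest median at 102 TPM, followed by Hes6 at 18.99 TPM. Neurod1 was at 0 in all 8 libraries.

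Of 11 prohormone processing genes all were tested and 0 were called in any comparison, with a median log2 fold change of -0.23 at 1 week and 0.22 at 4 months, against 0.00 and 0.01 for all genes. Cpe, carboxypeptidase E, which trims basic residues from cut prohormones, was at 93.7 and 108 CPM in 4m0Gy and at 150 and 146 CPM in 4m4Gy, which gave 0.55 ± 0.09 on the log2 scale (SE, adjusted p = 0.223). At 1 week the smallest unadjusted p was that of Pcsk1n, the inhibitor of prohormone convertase 1, at -0.55 (adjusted p = 0.849). The highest medians were those of Pam, the amidating enzyme that calcitonin requires, at 86.2 TPM, Scg5 at 85.9 TPM, and Furin at 55.4 TPM. Of 23 granin and dense core vesicle genes, 22 were in the table, 19 or 20 were tested, and 0 were called. Their highest medians were 78.6 TPM for Cyb561, 69.2 TPM for Resp18, and 26.5 TPM for Chgb. In age, 18 of 19 were above 0, as were 50.03% of all genes tested, with a median log2 fold change of 0.30 against 0.00 for all genes, and the smallest unadjusted p was that of Cadps2 (0.30, adjusted p = 0.110). Chgb, chromogranin B, was at 79.4 and 55.9 CPM in 1w0Gy, 44.0 and 69.4 CPM in 1w4Gy, 66.3 and 111 CPM in 4m0Gy, and 106 and 117 CPM in 4m4Gy. Chgb was thus not low in 4m4Gy replicate 2, the library with the low Chga.

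Around RET, 9 of 10 listed ligands and coreceptors were in the table and 7 were tested. Gfra2, the neurturin coreceptor, was the 1 gene called in any of these lists, for age, where 1.06% of all 15364 genes tested were called. It fell with age by 0.79 ± 0.09 on the log2 scale (SE, adjusted p = 0.0223 from edgeR). The call was lost without 1w0Gy replicate 1 (adjusted p = 0.0625), without 1w0Gy replicate 2 (adjusted p = 0.0822), and with counts summed over transcripts (adjusted p = 0.0570). It was at 26.2 and 28.6 TPM in 1w0Gy and at 14.8 and 17.3 TPM in 4m0Gy, while Gfra4 was at 33.3 and 27.1 TPM and at 38.3 and 55.0 TPM. Pspn, the gene of persephin, the GFRA4 ligand, ranged from 6.93 to 8.50 TPM. Gdnf reached at most 0.0814 TPM, and Gfra1 was not analysed here. The highest medians were 19.4 TPM for Gfra2, 14.99 TPM for Gdf15, and 8.21 TPM for Gfra3.

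Of 14 genes of calcium sensing and secretory stimulus, 9 or 10 were tested and 0 were called. Casr, the calcium-sensing receptor of C cells and parathyroid cells, had a median of 16.5 TPM, with its lowest value of 8.69 TPM in 4m4Gy replicate 2. Kcnj11 had a median of 2.58 TPM and Cacna1d of 2.09 TPM. Sctr, the secretin receptor, was at a median of 0.229 TPM, and its log2 fold change with age was -1.14 (adjusted p = 0.246). Of the receptor genes for calcitonin and CGRP, 3 of 6 were in the table, 2 were tested and 0 were called. Calcr, the calcitonin receptor, reached at most 0.0633 TPM. Ramp3 had a median of 19.1 TPM and Calcrl, the gene of the calcitonin receptor-like receptor, of 8.38 TPM. The log2 fold change of Ramp3 at 4 months was 0.50 (adjusted p = 0.268 from edgeR). Of 12 other peptides reported in C cells, 4 or 5 were tested and 0 were called. Their highest medians were 12.3 TPM for somatostatin (Sst), 8.50 TPM for neuromedin U (Nmu), and 7.94 TPM for thyrotropin-releasing hormone (Trh). Sst, a product of a subset of C cells, was at 9.50 and 19.3 CPM in 1w0Gy, 7.90 and 21.6 CPM in 1w4Gy, 4.13 and 33.3 CPM in 4m0Gy, and 1.73 and 2.59 CPM in 4m4Gy. Trh was at 19.2 and 10.2 CPM in 1w0Gy and at 7.77 and 6.55 CPM in 1w4Gy, which gave -1.04 on the log2 scale (adjusted p = 0.849).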

How the data were processed

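Per the methods, the authors isolated thyroid RNA, prepared directional libraries, sequenced 100-base paired reads, mapped them with HISAT2 (2.2.1) and counted them with featureCounts (2.0.0). The genome build is not given in the sources used here. The deposited table holds raw read counts per transcript (54991 transcripts), with RPKM and TPM that the authors computed from them. The deposited RPKM values were not used in any comparison, and the deposited TPM values served for levels between genes and 1 alternative.

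The transcript with the highest summed count was kept per gene, since transcripts of a gene share reads. Tests used edgeR 4.0.16 in R 4.3.3 (quasi-likelihood, TMM, filterByExpr, robust prior) on whole tables, with Benjamini-Hochberg adjustment over all genes tested. Irradiation calls needed an adjusted p under 0.05 and a fold above 1.5 or under 0.5. Correlations used log2 CPM with a prior count of 1 and all 40320 pairings. DESeq2 1.42.0 and the other alternatives are given in the closing section. Scripts were tested on simulated counts. With 2 rats per group, the spread between rats limits precision more than the 14835406 to 18138113 counts per library for genes with many reads. For Sct, at 9 to 18 reads per library, counting error also limits precision.

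The members and lists were chosen with earlier results of these data known. All members were named. Of each other list, the gene with the smallest p per comparison and up to 3 genes with the highest TPM were eligible to be named, and others that are named were chosen after their values were seen. One gene that this rule selects is not reported here. Protein features were not analysed here.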

Additional observations from a re-analysis of the deposited data

Results flagged for a closer look

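For 2 members, both irradiated libraries lay outside both sham libraries at each age, on opposite sides at the 2 ages. The number of other genes with this pattern was not counted, so whether it is unusual among all genes is not known. Scgn was lower in both 1w4Gy libraries than in both 1w0Gy libraries and higher in both 4m4Gy libraries than in both 4m0Gy libraries, its log2 interaction being -1.58 ± 0.43 (SE). Gfra4 did the same, its log2 interaction being -0.84 ± 0.23 (SE). The test of the difference itself, the quasi-likelihood interaction test of edgeR, did not pass for either, with adjusted p = 0.409 and adjusted p = 0.421. Without each library in turn the interaction of Scgn ranged from -1.98 to -1.23 and that of Gfra4 from -1.10 to -0.61. The levels of Scgn rest on 36 to 123 reads per library.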

How the results depend on the processing

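Of 388 values of members' fold changes under alternatives that keep all libraries, 381 kept their sign and side of the threshold. Signs turned for Chga (0.32 with the replicate block, 0.62 from log2 TPM + 1) and Ret (0.0099 from log2 TPM + 1) in the interaction, and for Scgn with age (0.46 in the additive fit). The causes were not tested. Members called for age went from 0 to 1 with DESeq2 and to 2 in the additive fit. Without each library in turn, members called ranged from 0 to 4 at 4 months and from 0 to 2 for age, and members correlated with Calca from 1 to 3. Signs then turned in 24 of 180 values, with these ranges. At 1 week they were -0.54 to 0.14 for Calca, -0.31 to 0.75 for Calcb, -0.33 to 0.18 for Scg2, -0.64 to 0.051 for Scg3, -0.30 to 0.39 for Ret, and -0.31 to 0.20 for Sct. At 4 months they were -2.63 to 0.34 for Chga and -0.031 to 0.25 for Ret. For the interaction they were -0.96 to 2.01 for Chga and -0.41 to 0.28 for Ret, and for age -0.19 to 0.96 for Calcb, -0.71 to 0.054 for Scgn, -0.42 to 0.33 for Chga, and -0.20 to 0.51 for Scg3.

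Over all genes, edgeR called 1 gene at 1 week, 3 at 4 months, 0 for the interaction, and 163 for age. DESeq2 called 13, 6, 25, and 342, and no filter on low counts gave 2, 15, 6, and 513. Counts summed over transcripts gave 0, 0, 0, and 27, and a prior spread that is not robust, chosen after seeing the data, gave 0, 0, 0, and 111. The fit of all 8 samples gave 1 at 4 months, and the additive fit 669 for age. Leaving out a library gave 2 to 45, 3 to 52, 0 to 22, and 12 to 743. The replicate numbers do not pair the rats, since same-numbered deviations correlated from -0.23 to 0.14 over pairs of groups. With the replicate number as a block the calls were 10, 12, 0, and 14, with 0 members in each comparison. DESeq2 gave no adjusted p for Sct in any comparison or for Scgn at 1 week. With at least 10 counts in every sample, Sct was left out at 4 months, in the interaction, and in age.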
